A study of Mus musculus with 12 samples.

Results

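The genes described here pattern the embryonic midbrain and its border with the hindbrain, or mark the dopamine neurons that arise there. They are En1, En2, Pax7, Pax2, Wnt1, Lmx1b, Foxa2, Th and Gbx2, taken by name from the array's platform table. Of these 9 genes, 8 had a probe set with a single gene symbol, 1 probe set each, out of 17097 genes on the arrays. No probe set was matched to Pax2, which was not analysed here. The values come from 12 arrays of embryonic mouse brain RNA in 4 groups of 3. Forebrain and midbrain were dissected at E11.5 from embryos labelled TetO-YAP1;Nes-rtTA (YAP overexpression), which carry a doxycycline-dependent YAP1-S127A allele and a transactivator driven by the Nestin promoter of neural progenitors. Their controls were labelled Nes-rtTA alone (YAP control), so they carried the transactivator without the YAP1 allele, and per the series' design text doxycycline was in the food of the dams (200 mg/kg, given from E7.5). At E13.5 the tissue was dorsal telencephalon, the dorsal part of the forebrain, of embryos labelled Nf2F/F;Emx1-Cre (Nf2 knockout) and of Nf2F/+;Emx1-Cre embryos (Nf2 control), which lack 1 Nf2 allele where the Cre, restricted to the telencephalon, is active. YAP is a transcriptional co-activator held back by the Hippo pathway, and the product of Nf2, Merlin, activates that pathway. The genetic background was mixed in all 4 groups, and the labels do not say whether the arrays of a group came from separate embryos. In GRCm38.p6 the other measured genes lie at chr1:120602487-120607991 (En1), chr5:28165696-28172190 (En2), chr4:139737059-139833530 (Pax7), chr15:98789857-98793830 (Wnt1), chr2:33560965-33641208 (Lmx1b) and chr2:148042877-148046969 (Foxa2), all protein-coding.

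The border between midbrain and hindbrain is an organizer that secretes Wnt1 and Fgf8. Otx2 marks the tissue in front of it and Gbx2 the tissue behind it. En1 and En2 are homeodomain factors expressed across the border, where they maintain midbrain identity. Pax7 marks the dorsal midbrain, while Foxa2 and Lmx1b act ventrally, in the floor plate and in progenitors of dopamine neurons. Those neurons switch on Nr4a2 and then Th, whose product, tyrosine hydroxylase, makes the precursor of dopamine.

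Of the 8 genes, Th and Gbx2 fell with YAP overexpression at E11.5. Th fell to 0.607 of the control level. Gbx2 differed by -0.68 on the log2 scale as measured, but its mean with YAP overexpression lay within the background range, so the size of its fall is not settled. The other 6 were not called. They were the signal Wnt1, the engrailed genes En1 and En2, the dorsal factor Pax7 and the ventral factors Lmx1b and Foxa2, with log2 changes from -0.20 to 0.16. With Nf2 loss at E13.5, in tissue that by its label holds no midbrain, none of the 8 was called, and 1, Wnt1, had an unadjusted limma p under 0.05, as did 6.24% of all genes. A call means an adjusted p under 0.05 over all genes in a limma fit of all 12 arrays. By that rule 6.31% of all genes were called in the YAP comparison, 3.64% as lower and 2.67% as higher, and 0.252% in the Nf2 comparison, 0.0468% as lower and 0.205% as higher.

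The windows around the annotated starts of the called genes, 250 bases before to 50 after, are shown because Th and Gbx2 are the members whose levels changed. Both genes lie on the minus strand, Th at chr7:142892779-142899995 and Gbx2 at chr1:89927962-89931176 of GRCm38.p6. The sequences are from RefSeq, written 5′ to 3′ on the strand of the gene. Capitals mark TGACGTCA, the full cyclic AMP response element.
Th, chr7:142899946-142900245: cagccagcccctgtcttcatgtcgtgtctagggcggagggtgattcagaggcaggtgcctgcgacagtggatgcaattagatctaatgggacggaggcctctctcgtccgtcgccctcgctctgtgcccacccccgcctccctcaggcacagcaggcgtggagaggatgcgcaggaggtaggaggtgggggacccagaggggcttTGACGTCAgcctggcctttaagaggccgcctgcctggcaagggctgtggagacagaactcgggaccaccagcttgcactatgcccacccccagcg
Gbx2, chr1:89931127-89931426: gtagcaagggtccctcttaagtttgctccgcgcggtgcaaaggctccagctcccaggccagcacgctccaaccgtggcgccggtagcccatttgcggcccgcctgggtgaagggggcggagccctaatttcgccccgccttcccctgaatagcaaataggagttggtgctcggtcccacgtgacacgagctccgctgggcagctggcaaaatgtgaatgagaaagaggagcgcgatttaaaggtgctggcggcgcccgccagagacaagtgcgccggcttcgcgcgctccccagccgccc
The Th window held TGACGTCA between 45 and 38 bases before the start, at chr7:142900033-142900040. The table gave 12 windows for 8 of the 9 genes, Pax2 included and En2 not, and this was the only match to that element among them. It occurs in 1.79% of the 32851 windows of all genes. GGAATG, the core that TEAD factors bind, was in 0 of the 12 windows and in 14.7% of all windows. AAAGGTCA, the site of a single Nr4a2 protein, was in 0 and in 1.51%. TAATTA, a homeodomain core, was in 0 and in 5.29%. Each motif was searched on both strands, none overlapped another in these windows, and a match or its lack describes these letters only.

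Values are deposited log2 intensities. A floor was read from genes of adult organs that are not expected in embryonic brain, of which 24 were measured. The milk protein gene Csn2 and the keratin gene Krt10 were bright in all groups, and with them the highest group mean of the list was 9.42 at E11.5 and 7.79 at E13.5. Against that level no member was above background with YAP overexpression, and 1 was in YAP controls, En2. Without these 2 genes, a choice made after their values were seen, the other 22 had group means of 3.90 to 4.79 at E11.5 and of 2.78 to 3.97 at E13.5. By this second range 4 members were above background with YAP overexpression (En2, Foxa2, Th and Wnt1) and 6 in YAP controls, where Gbx2 and Pax7 were above it too. En1 and Lmx1b were within it in both groups.

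**Figure D1:**
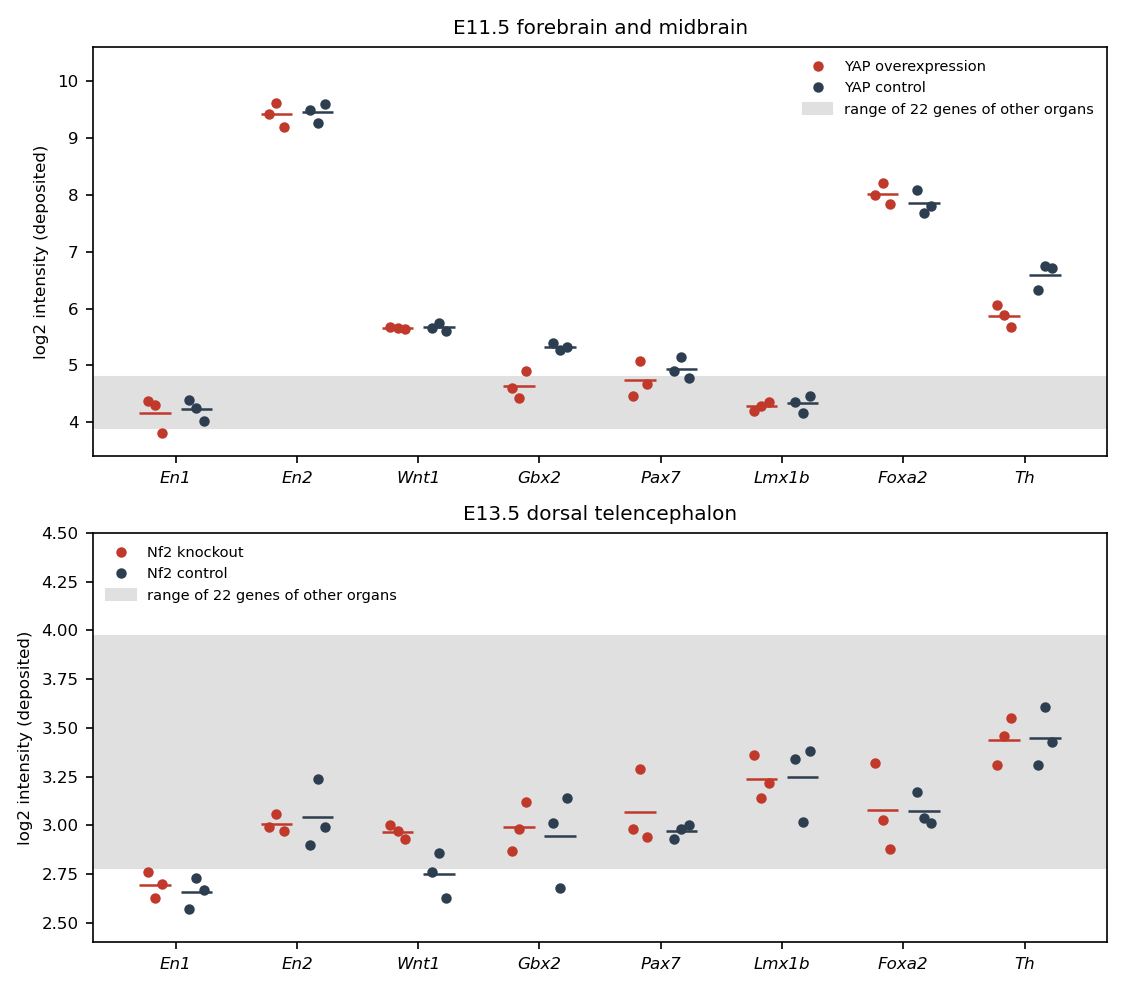
Deposited log2 intensity (y axis) of the 8 genes on each array, with the mean of each group as a line, for E11.5 forebrain and midbrain (top) and E13.5 dorsal telencephalon (bottom). Grey bands mark the range of the group means of the 22 genes of other organs, 3.90 to 4.79 and 2.78 to 3.97. At E11.5 the groups are apart for Gbx2 and Th, and at E13.5 all 8 genes lie in or below the band.

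Wnt1, the secreted signal of the border, differed little. It read 5.68, 5.65 and 5.64 with YAP overexpression, against 5.66, 5.75 and 5.61 in YAP controls. The 3 overexpression arrays all lay within the range of the controls. The log2 change of -0.02 had a 95% interval from -0.18 to 0.14, and limma did not call it (SE 0.07, adjusted p = 0.932). Its sign was not settled, since the change was 0.04 after quantile normalization and 0.02 with each array centred on its median.

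Neither engrailed gene was called. En2 was far above the background range, at 9.42, 9.62 and 9.20 with YAP overexpression, against 9.49, 9.27 and 9.59 in YAP controls. The groups overlapped, and the log2 change of -0.04 (SE 0.12, adjusted p = 0.912 by limma) had a 95% interval from -0.30 to 0.23. En1 read 4.37, 4.30 and 3.81 against 4.40, 4.25 and 4.03 in YAP controls, so its probe set lay within the background range in both groups. Whether that probe set detects the En1 transcript was not tested. The change of -0.07 (95% interval -0.36 to 0.23, adjusted p = 0.852 by limma) was not called. Overexpression array 3 was the lowest of its group for both engrailed genes, and without it the changes were 0.11 for En1 and 0.07 for En2, still not called.

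Gbx2, the homeodomain gene of the hindbrain side, fell. It read 4.60, 4.43 and 4.91 with YAP overexpression, against 5.39, 5.27 and 5.32 in YAP controls. Every overexpression array was below every control array, by at least 0.36, and the means were 4.65 ± 0.24 and 5.33 ± 0.06 (SD, n = 3 each). By limma the log2 change was -0.68 (SE 0.13, 95% interval -0.97 to -0.39, adjusted p = 0.011). The overexpression arrays reached the range of the 22 genes of other organs in the mean, so the intensities give no lower level for this gene than that floor. Gbx2 is also transcribed in the thalamus and ventral forebrain of the mouse embryo. The 7 hindbrain genes measured averaged from 4.37 to 4.39 per overexpression array and from 4.30 to 4.45 per control array. Egr2 and Hoxb1, which mark hindbrain segments, were at or under 4.39 on every E11.5 array, with group means within the background range. Hoxb4, of the same list, lay above the 4.79 that tops the 22 genes of other organs. Its means were 4.82 with YAP overexpression and 5.03 in YAP controls. The part of hindbrain tissue in the Gbx2 difference was not tested.

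Pax7, the paired-box gene of the dorsal midbrain, read 4.47, 5.08 and 4.68 with YAP overexpression, against 4.90, 5.14 and 4.78 in YAP controls. The groups overlapped, with overexpression array 2 near the top of the controls. The Pax7 mean with YAP overexpression, 4.74, lay within the range of the 22 genes of other organs, and the control mean of 4.94 was above it. The size of any fall in Pax7 is therefore not settled. The log2 change of -0.20 as measured (SE 0.15, 95% interval -0.52 to 0.12) was not called by limma (adjusted p = 0.528). Over the leave-one-out fits it ran from -0.37 without overexpression array 2 to -0.06 without overexpression array 1.

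Of the ventral factors, Foxa2, a forkhead factor of the floor plate, was the 1 member with a positive difference. It read 8.00, 8.20 and 7.84 with YAP overexpression, against 8.08, 7.68 and 7.80 in YAP controls. The ranges overlapped and the log2 change of 0.16 (SE 0.13, 95% interval -0.13 to 0.45) was not called by limma (adjusted p = 0.581). Lmx1b, a LIM-homeodomain factor, read 4.19, 4.29 and 4.36 against 4.36, 4.17 and 4.47 in YAP controls. Both groups lay within the background range, and the change was -0.05 (SE 0.11, 95% interval -0.29 to 0.19, adjusted p = 0.854 by limma).

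Th, the gene of tyrosine hydroxylase, fell too. It read 6.07, 5.88 and 5.67 with YAP overexpression, against 6.32, 6.74 and 6.72 in YAP controls. All 3 overexpression arrays were below the lowest control array, by at least 0.25, and the means were 5.87 ± 0.20 and 6.59 ± 0.24 (SD, n = 3 each). By limma the log2 change was -0.72 (SE 0.13, 95% interval -1.01 to -0.43, adjusted p = 0.00802), which is 1.65-fold lower. In a fit of only the 6 arrays of this experiment the same difference missed the threshold (adjusted p = 0.0504), while Gbx2 passed (adjusted p = 0.0385). Groups that do not overlap were found in 2 of the 8 genes, and in 21.3% of all genes. In bulk tissue, fewer cells expressing a gene and less RNA in each such cell cannot be told apart.

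**Figure D2:**
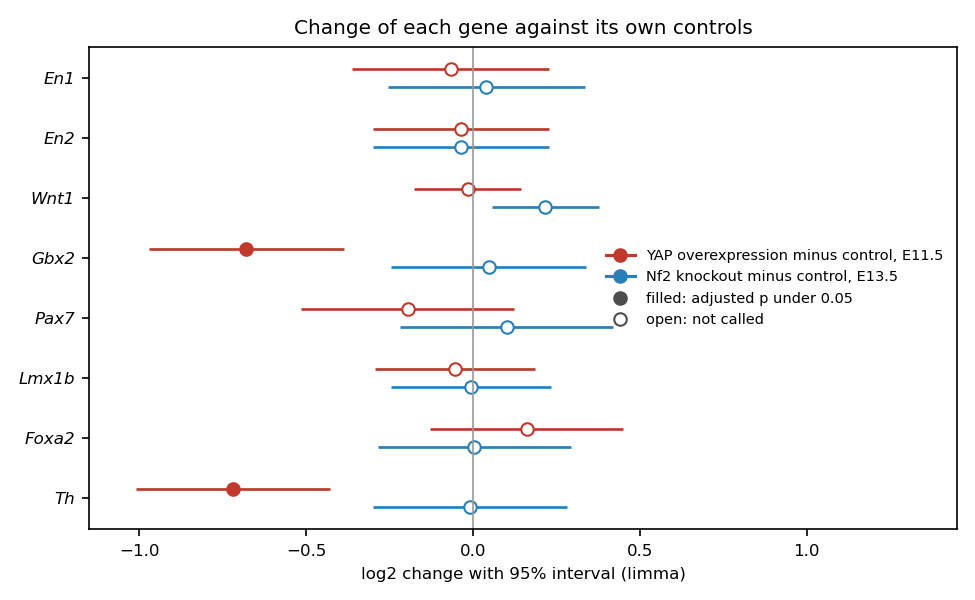
Log2 change (x axis) of each of the 8 genes against its own controls, with the 95% interval from limma, for YAP overexpression at E11.5 and Nf2 knockout at E13.5 (3 arrays in each group). Filled points passed an adjusted p of 0.05. Th (-0.72) and Gbx2 (-0.68) are the 2 filled points, and the intervals of the other 6 genes in the YAP comparison include 0.

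Th and Gbx2 were also set against other genes within each array. Log2 Th minus log2 Foxa2 was -1.93, -2.32 and -2.17 with YAP overexpression, against -1.76, -0.94 and -1.08 in YAP controls, a difference of -0.88 between the groups. Th minus En2 was -3.35, -3.74 and -3.53 against -3.17, -2.53 and -2.87 in YAP controls, a difference of -0.68. Neither pair of groups overlapped, and the exact permutation test gave p = 0.1 for each (two-sided, 20 splits), the smallest that 3 arrays against 3 allow. Th minus Nr4a2, a gene of dopamine neurons that itself fell, ran from -2.48 to -1.84 with YAP overexpression, against -2.56 to -1.93 in YAP controls, a difference of -0.09 with overlapping groups (exact p = 1.0). Gbx2 likewise differed by -0.64 relative to En2 and by -0.84 relative to Foxa2, each with exact p = 0.1 and no overlap. En2 and Foxa2 were not called and Th and Gbx2 were, so these differences restate those calls and add no separate support.

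From array to array Th and Gbx2 differed. Th was lowest on overexpression array 3, where Gbx2 was highest of its group. Among the 3401 genes whose mean was above 9.42, the highest group mean of the full list of other-organ genes, in at least 1 YAP group, the genes most like Th over the 6 E11.5 arrays were Kifap3 (Pearson r = 0.993), Ahsa2 (0.987), Mmd (0.98), Ift22 (0.978) and Oip5os1 (0.978). Those most like Gbx2 were Yeats4 (0.982), Capn7 (0.98), Sesn3 (0.977), Hook1 (0.972) and Zfp280d (0.972). With group means subtracted, r lay between 0.889 and 0.985 for the first 5 and between 0.831 and 0.982 for the second. These values are the top of 3401 over 6 arrays that share 2 group means, and describe likeness only.

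Other genes of catecholamine neurons placed Th in context. Of 11 measured, 1 fell, 0 rose and 10 were not called, with a median log2 change of -0.06 against -0.01 over all genes. The gene that fell was Nr4a2, the nuclear receptor needed for Th in midbrain dopamine neurons. Nr4a2 read 7.91, 8.36 and 8.10 with YAP overexpression, against 8.88, 8.67 and 8.72 in YAP controls, with no overlap (log2 change -0.63, SE 0.11, adjusted p = 0.00471 by limma). Of its 5 probe sets, 3 differed by -0.64 to -0.55 and 2 dim ones, with means of 4.71 and 4.53, by -0.06 and -0.19. Nr4a2 is not restricted to dopamine neurons, and it read 8.69 to 9.07 on the arrays of E13.5 dorsal telencephalon, where Th was at background. Ddc, the decarboxylase that follows tyrosine hydroxylase, read 6.94, 7.33 and 6.85 against 7.79, 7.48 and 7.58 in YAP controls. Its groups did not overlap, but the change of -0.58 (SE 0.16) was not called (adjusted p = 0.0601 by limma). The dopamine transporter gene Slc6a3 read 4.09 to 4.33 against 4.36 to 4.64 in YAP controls, all within the background range (-0.29, adjusted p = 0.153), and Pitx3, a factor of midbrain dopamine neurons, read 4.38 to 4.56 against 4.45 to 4.57. Without overexpression array 2, or without Nf2 control array 1, 2 genes of this list were called as lower. Dbh, which turns dopamine into noradrenaline, and Phox2a, a factor of noradrenergic neurons, had changes of 0.13 (adjusted p = 0.754) and 0.25 (adjusted p = 0.129). The Phox2a groups did not overlap, at 4.88 to 4.91 against 4.56 to 4.77 in YAP controls.

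**Figure D3:**
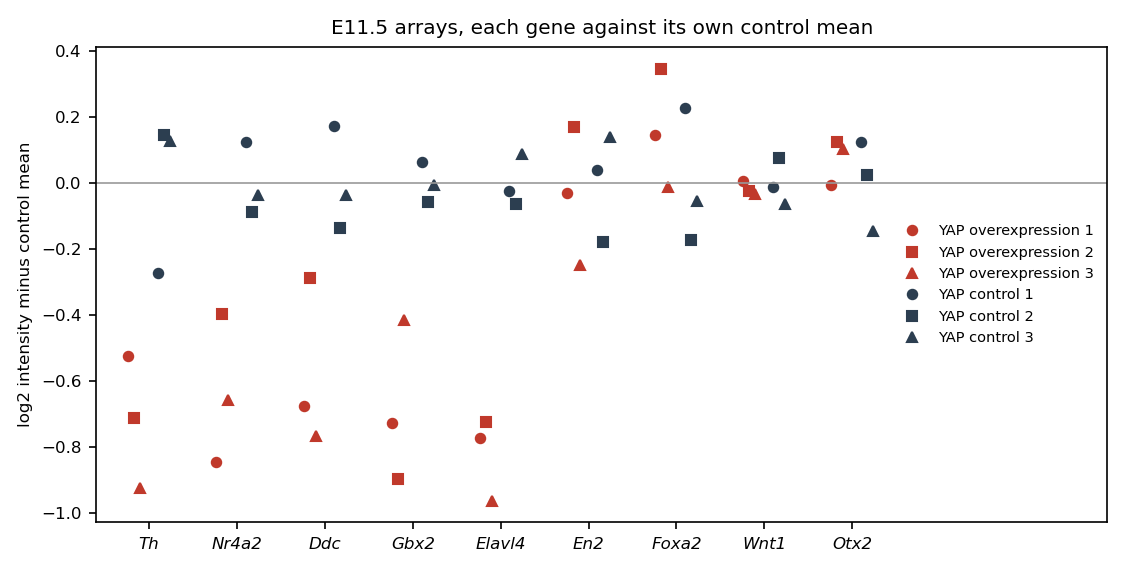
Log2 intensity minus the YAP control mean (y axis) of 9 genes on each of the 6 E11.5 arrays. Each replicate number has 1 symbol, which is not taken to pair arrays. All 3 overexpression arrays lie below the 3 control arrays for Th, Nr4a2, Ddc, Gbx2 and Elavl4, while the groups mix for En2, Foxa2, Wnt1 and Otx2.

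Genes of neurons in general moved in the same samples as Th. Of 9 postmitotic neuron genes measured, 6 fell, 0 rose and 3 were not called (median -0.59). The RNA-binding protein gene Elavl4 fell by 0.82 (SE 0.08), the synaptic gene Snap25 by 0.80 (SE 0.16) and the neuronal tubulin gene Tubb3 by 0.69 (SE 0.12). Elavl3 (-0.65), Stmn2 (-0.59) and Map2 (-0.55) fell too, but Elavl3 and Stmn2 were each called under 16 of 22 alternatives and Map2 under 10 of 21. The other Map2 probe set differed by -0.20 (adjusted p = 0.435 by limma over all probe sets). Gap43 (-0.38, adjusted p = 0.127) and Nefl (-0.19, adjusted p = 0.492) were not called. Nor was Rbfox3, with means of 8.59 with YAP overexpression and 8.60 in YAP controls. The mean over the list ran from 9.26 to 9.66 on overexpression arrays and from 9.80 to 10.11 on control arrays, and the part of this in the fall of Th was not tested. The count was 3 without overexpression array 1, without overexpression array 3 or without control array 3, and 1 with only the 6 arrays fitted.

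Other neurons of the midbrain and diencephalon were lower as well. Of 11 genes measured, 3 fell, 0 rose and 8 were not called, all 11 had a negative difference, and the median was -0.45. Lhx9, a LIM-homeodomain gene of thalamic and dorsal midbrain neurons, read 7.85, 8.52 and 7.93 with YAP overexpression, against 9.43, 9.27 and 9.68 in YAP controls. The arrays did not overlap (log2 change -1.36, SE 0.16, adjusted p = 0.000559 by limma), and its other probe sets differed by -0.88 and -1.18. Ebf3, a factor of early neurons, fell by 0.71 (SE 0.18, adjusted p = 0.0387), and Tcf7l2, which marks the thalamus, by 0.33 (SE 0.09, adjusted p = 0.0485). Isl1 (-0.97, adjusted p = 0.223) and Gata2 (-0.60, adjusted p = 0.119) were not called by limma. The E11.5 groups of both did not overlap, as in 21.3% of all genes. Lhx9 was called under all 22 alternatives, but Ebf3 under 12 and Tcf7l2 under 7 of 22. With overexpression array 1 or 3 or any 1 of the 3 control arrays left out, 1 gene of this list was called.

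Most other genes of the organizer and of midbrain patterning were not called. Of 24 measured, 2 rose, 1 fell and 21 were not called, with a median of 0.01. Otx2, the factor of forebrain and midbrain, read 11.46, 11.59 and 11.57 with YAP overexpression, against 11.59, 11.49 and 11.32 in YAP controls (log2 change 0.07, 95% interval -0.13 to 0.27). Fgf8, the organizer's main signal, changed by 0.08 (95% interval -0.31 to 0.47), Pax3, a dorsal partner of Pax7, by -0.12 (-0.41 to 0.17) and Cnpy1, a gene of the border that acts in FGF signalling in zebrafish, by 0.03 (-0.32 to 0.37). The ligand gene Fgf18 rose by 0.79 (SE 0.16, adjusted p = 0.0144), with 6.24, 6.66 and 5.88 against 5.66, 5.40 and 5.35 in YAP controls. The zinc-finger factor gene Sp8 rose by 0.47 (SE 0.11, adjusted p = 0.0291), and Meis2, a homeodomain gene of the tectum and forebrain, fell by 0.56 (SE 0.13, adjusted p = 0.0247). Tal2, a factor of midbrain GABA neurons (-0.47, adjusted p = 0.12), and Dusp6 (0.26, adjusted p = 0.338) were not called. Without control array 3 none of the 24 was called, and Fgf18 then had an adjusted p of 0.0637. Without control array 1 only Fgf18 was, and Sp8 lost its call without any of overexpression arrays 1 and 3 and the 3 control arrays (adjusted p from 0.0575 to 0.107). With only the 6 arrays fitted none of the 24 was called, with adjusted p = 0.0799 for Fgf18, 0.0586 for Sp8 and 0.1 for Meis2.

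Of 11 genes of the floor plate and ventral midbrain, 1 rose and 0 fell, and the median change was 0.12. Shh, the ventral signal, read 5.11, 6.06 and 6.28 with YAP overexpression, against 4.46, 4.95 and 4.53 in YAP controls. The groups did not overlap and the log2 change was 1.17 (SE 0.24, adjusted p = 0.0125 by limma). The control mean of 4.65 lay within the background range. The call was lost without control array 1 or control array 3 (adjusted p 0.051 and 0.0555), and with only the 6 arrays fitted (adjusted p = 0.0837). The secreted guidance gene Ntn1 (0.35, adjusted p = 0.315) and Gli1, a target of Shh signalling (0.33, adjusted p = 0.276), were not called, nor was Foxa1, the relative of Foxa2 (0.21, adjusted p = 0.213).

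Among the neighbouring regions, 0 of 7 hindbrain genes were called, and 0 had an unadjusted limma p under 0.05, against 19.6% of all genes. The differences of largest size there were those of Hoxb4 (-0.20, adjusted p = 0.52) and, tied, of Hoxa2 (0.17, adjusted p = 0.535) and of Hoxb2 (0.17, adjusted p = 0.43). Of 7 forebrain genes, 4 fell, 0 rose and 3 were not called. Dlx2, a gene of GABA neuron precursors of the ventral forebrain, fell by 1.92, Lhx2 by 0.69, Emx2 by 0.68 and Emx1 by 0.58, while Nkx2-1 (-0.14) and Rax (0.09) were not called. Emx1 lost its call without overexpression array 1, control array 1 or control array 3 (adjusted p from 0.0505 to 0.0636), and with only the 6 arrays fitted (adjusted p = 0.0875). Its overexpression mean of 4.89 lay near the top of the range of the 22 genes, 4.79, and its control mean was 5.47. The other Emx1 probe set, with a mean of 4.43, differed by -0.27 (adjusted p = 0.373 by limma over all probe sets).

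**Figure D4:**
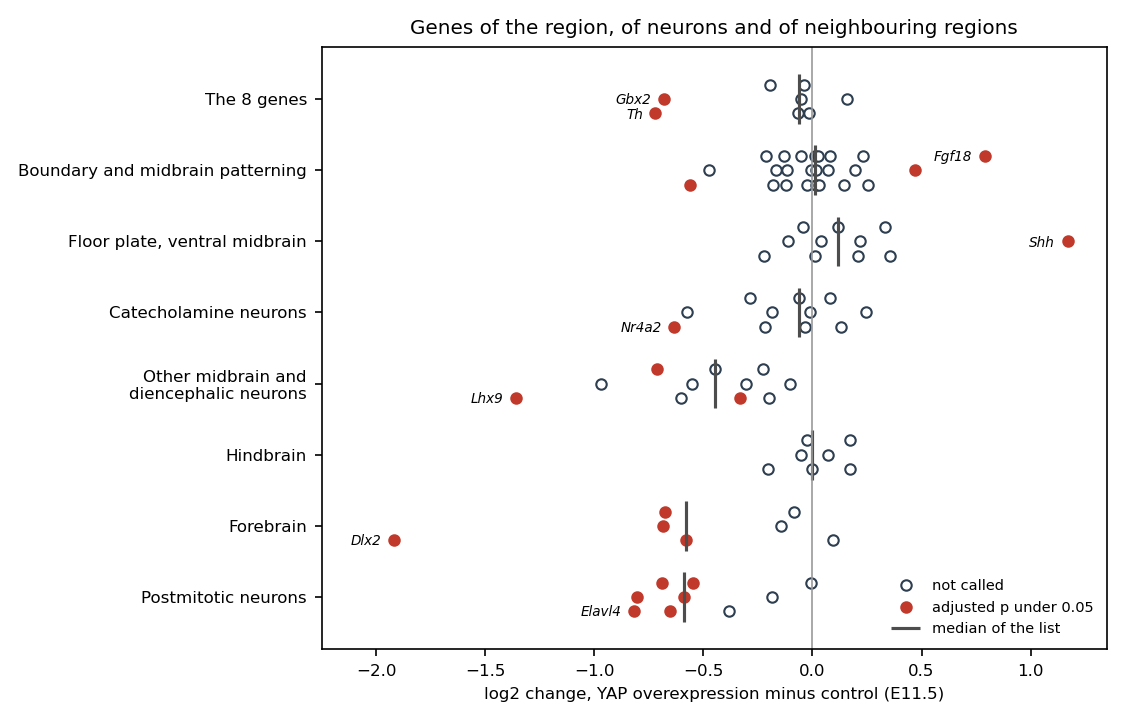
Log2 change with YAP overexpression at E11.5 (x axis) of the 8 genes and of 7 lists of genes, each point a gene, filled where limma's adjusted p was under 0.05, with the median of each list as a line. The medians are 0.01 for the boundary list, 0.12 for the floor plate list, -0.06 for catecholamine neurons, -0.45 for other midbrain and diencephalic neurons, and -0.59 for postmitotic neurons.

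Markers of other cell types that the pieces could hold included 2 called genes. None of 7 mesenchymal, 5 endothelial and 4 blood genes was called, and at an unadjusted limma p under 0.05 they numbered 2, 0 and 2, against 19.6% of all genes. The largest differences were those of Col1a1 (-0.63) and Pdgfrb (-0.34), Pecam1 (0.18) and Kdr (-0.13), and Hba-x (-0.23) and Hbb-y (-0.18). Of 7 surface ectoderm genes, the keratin gene Krt19 rose by 0.84 (adjusted p = 0.00108 by limma) and Epcam (-0.32) and Krt8 (-0.27) were not called. The Krt19 mean in YAP controls, 4.20, lay within the background range. Of 3 sensory ganglion genes, the neurogenic factor gene Neurog1, which brain progenitors express too, fell by 0.65 (adjusted p = 0.0043 by limma) on its brighter probe set. It differed by 0.03 on the other, whose mean over the E11.5 arrays, 4.53, lay within the background range. Pou4f3 (-0.20) and Prph (0.04) were not called. The part of these differences in those of Th and Gbx2 was not tested.

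In the dorsal telencephalon at E13.5 the 8 genes gave the level of tissue without midbrain. Their group means ran from 2.70 to 3.44 in Nf2 knockouts and from 2.66 to 3.45 in Nf2 controls, and the array medians of this experiment from 4.3 to 4.42. Of the 8, 7 lay within the range of the 22 genes of other organs in Nf2 knockouts and 6 in Nf2 controls. The others were below it, En1 in both groups and Wnt1 in Nf2 controls. En2 read 2.99, 3.06 and 2.97 in Nf2 knockouts, against 2.90, 3.24 and 2.99 in Nf2 controls. Th read 3.31, 3.46 and 3.55 in Nf2 knockouts, against 3.31, 3.61 and 3.43 in Nf2 controls, with a log2 change of -0.01 (95% interval -0.30 to 0.28). The experiments appear to have been normalized separately, so their levels are not compared. At E11.5 the array medians ran from 5.03 to 5.1.

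Wnt1 was the exception in the spread at E13.5. It read 3.00, 2.97 and 2.93 in Nf2 knockouts, against 2.76, 2.86 and 2.63 in Nf2 controls, and the groups did not overlap, as in 12.7% of all genes in this comparison. The log2 change of 0.22 (SE 0.07, unadjusted p = 0.0118 by limma) was not called (adjusted p = 0.592). All 6 values lie at background.

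The YAP and Nf2 effects were also set against each other in the same fit, although age, tissue and manipulation differ together between the experiments. For Th the YAP effect minus the Nf2 effect was -0.71 (SE 0.19, adjusted p = 0.185 by limma) and for Gbx2 -0.73 (SE 0.19, adjusted p = 0.173). Their unadjusted p values were 0.00271 and 0.00236, and 3 of the 8 genes had an unadjusted p under 0.05, against 10.1% of all genes. None of the 8 was called in that contrast, in which 0.281% of all genes were (0.111% as lower, 0.17% as higher).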

How the data were processed

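RNA from 12 arrays was analysed, 3 in each of 4 groups, assigned from the sample titles. The authors deposited log2 intensities for each probe set. Per the submitters' processing notes RMA, Affymetrix Expression Console 1.1 and Partek 6.5 were used, with no role given, and other steps are not given in the sources used here. Array medians differ between the experiments as if each had been normalized separately. Genes were named from the platform table of 2016 (28898 single-symbol probe sets, 28689 updated through Entrez IDs), and the probe set of highest mean stood for each gene.

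A model of 4 group means was fitted to 17097 genes over 12 arrays with limma 3.58.1 in R 4.3.3 (8 residual and 4.096 prior degrees of freedom). P-values were two-sided and Benjamini-Hochberg adjusted over all genes. The fit was tested on simulated data. Replicates may be technical, in which case p-values measure only that spread, and the number of arrays limits precision.

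The genes and the 12 lists were chosen with earlier results of these data known. Named from each list were all called genes and the 2 with the largest change among the others. Otx2, Fgf8, Pax3, Cnpy1, Pitx3, Dbh, Phox2a, Foxa1, Egr2 and Hoxb1 were added for their roles after values were seen. Rbfox3 was added after values were seen too, for its lack of change. For each called member the 5 genes with the highest Pearson r over the 6 E11.5 arrays were named. Residuals of same-numbered arrays correlated at 0.271, 0.212 and 0.207 in the Nf2 experiment, and at 0.097, -0.195 and -0.204 in the YAP experiment. The labels state no pairing, so whether the numbers pair arrays is not settled, and the main fit used none. Alternatives covered pairing, arrays fitted, probe set choice, normalization, a filter on dim genes, the variance model, array weights and each array left out.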

Additional observations from a re-analysis of the deposited data

Results flagged for a closer look

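The effect of YAP overexpression differed from that of Nf2 loss, by the test of the difference itself, in 3 genes named from the lists. Age and tissue differed too. By that test 0.281% of all genes were called, and the lists were chosen with earlier results known. YAP effect minus Nf2 effect was -0.86 for Nr4a2 (SE 0.15, limma adjusted p = 0.0381), from changes of -0.63 and 0.23. It was -0.71 for Lhx2 (SE 0.12, adjusted p = 0.0278), from -0.69 and 0.02, and -0.71 for Elavl4 (SE 0.11, adjusted p = 0.0266), from -0.82 and -0.11. In each of the 3, all overexpression arrays were below all YAP control arrays.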

How the results depend on the processing

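With same-numbered arrays as a replicate block, Th (adjusted p = 0.0351) and Gbx2 (adjusted p = 0.0215) were again called in the YAP comparison and none in the others, so the pairing changed no call of a member. It ended the calls of the list genes Ebf3, Elavl3, Meis2, Stmn2 and Tcf7l2. The count of members called with YAP overexpression was 2 in 20 of 22 alternatives. It was 1 with only the 6 arrays of the experiment (Gbx2) and 1 with dim genes left out, since Gbx2 was then not tested. With any array left out Th was called (log2 change from -0.86 to -0.62, highest adjusted p = 0.0424), as was Gbx2 (-0.81 to -0.57, 0.0425). The counts of 0 for Nf2 loss and for the difference of the effects held under all 22 and 21 alternatives, the difference having none with 6 arrays. Without Csn2 and Krt10, chosen after seeing the data, the highest background mean was 4.79 in place of 9.42 (YAP) and 3.97 in place of 7.79 (Nf2), and members above it were 4 in place of 0 with YAP overexpression and 6 in place of 1 in YAP controls. Signs reversed only where changes were near 0 and not called. Quantile normalization gave 0.0414 for Wnt1 with YAP, and 0.0028 for Lmx1b and 0.0067 for Th with Nf2 loss. Median centring gave 0.0167 for Wnt1 with YAP. Array weights gave -0.0246 for Foxa2 and 9e-04 for Th with Nf2 loss. With 1 array left out, the YAP change ranged from -0.17 to 0.11 for En1, -0.14 to 0.07 for En2, -0.0483 to 0.0217 for Wnt1 and -0.135 to 0.015 for Lmx1b. The Nf2 change ranged from -0.0033 to 0.0767 for En1, -0.11 to 0.0617 for En2, -0.01 to 0.17 for Pax7, -0.12 to 0.06 for Lmx1b, -0.12 to 0.10 for Foxa2, -0.08 to 0.07 for Th and -0.085 to 0.145 for Gbx2. The difference ranged from -0.21 to 0.0683 for En1, and -0.13 to 0.0667 for Lmx1b. The cause of these shifts was not tested. Where a probe set lies at background, as for En1 and Lmx1b, a fall could not be seen at this signal. Pax7 was within the range of the 22 genes with YAP overexpression and above it in YAP controls, so only part of a fall could be seen.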
